A study of Mus musculus with 27 samples.

Results

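Mannose-binding lectin C (Mbl2) and 7 further genes of the complement system were followed in mouse intestine after radiation and after CBLB502: Mbl1, C3, C2, Cfb, Cfi, Cd55 and Serping1. The 8 genes were taken by name, 1 row each, from a table of 55401 genes. Mbl2 had been selected on its measured rise between the control and the 15 Gy 24 h libraries, so every Mbl2 comparison that uses either group is given here as a description without a test. Which values led to the choice of the other members is not recorded in the sources used here, and that comparison is described without a p for them as well.

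The study sequenced RNA of intestine from male wild-type C57BL/6 mice 6 to 8 weeks old, in 27 libraries that form 9 groups of 3. Control mice had no treatment by the sample labels, which give them no sampling time. The design text of the study instead names PBS (phosphate-buffered saline) as the control for CBLB502. The labels were used here, so whether the controls were injected is not settled. Other groups received 6 Gy or 15 Gy of cobalt gamma radiation at 72 R/min and were sampled after 6 h, after 24 h or, for 15 Gy, after 3 d. CBLB502, a radioprotectant derived from bacterial flagellin that activates the receptor TLR5, was injected into the peritoneum at 0.2 mg/kg. It was given alone with sampling at 24 h, 0.5 h ahead of 15 Gy with sampling at 24 h, and with 6 Gy with sampling at 24 h, where the interval between drug and radiation is not given in the sources used here. Whether each library is 1 mouse or a pool, and which part of the intestine was taken, is also not given, so p-values measure only the spread between these libraries.

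Complement is a cascade of plasma and membrane proteins that marks surfaces for removal. Mannose-binding lectins recognise sugars and start the lectin pathway through the proteases of the MASP family, which cleave C4 and C2. The C2 protease forms the convertase of the classical and lectin pathways, and factor B, encoded by Cfb, forms that of the alternative pathway. Both convertases act on C3. Factor I (Cfi) inactivates the C3 and C4 fragments on surfaces, CD55 speeds the decay of the convertases on the cell that carries it, and the C1 inhibitor (Serping1) blocks the proteases that start the classical and lectin pathways. The liver makes most circulating complement, and the mouse small intestine is also known to express Mbl2.

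The members lie on 6 chromosomes, and their positions in the table are those of GENCODE vM21 on GRCm38. Mbl2 (ENSMUSG00000024863) occupies chr19:30232942-30239687 on the plus strand and Mbl1 (ENSMUSG00000037780) chr14:41151458-41159601 on the plus strand. C2 (ENSMUSG00000024371, chr17:34862604-34898265) and Cfb (ENSMUSG00000090231, chr17:34856374-34862518) are neighbours on the minus strand with 85 bases between them. A gene model that spans both, Gm20547, held 56 counts over all libraries against 46658 for C2 and 389939 for Cfb. C3 (ENSMUSG00000024164) lies at chr17:57203970-57228136, Cd55 (ENSMUSG00000026399) at chr1:130439027-130462744 and Serping1 (ENSMUSG00000023224) at chr2:84765387-84775444, all on the minus strand. Cfi (ENSMUSG00000058952) lies at chr3:129835884-129875332 on the plus strand. Counts for Cd55 are uncertain to the extent that reads are shared with its near copy Cd55b, which did not exceed 1.42 FPKM in any library.

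The sequences just ahead of the starts of the mannose-binding lectin genes are shown because one of the pair was among the strongly varying members and the other was almost silent. RefSeq (GRCm38.p6) gave promoter windows for 4 of the 8 members, Mbl2, Mbl1, C3 and Cd55. Each stretch below runs through the 150 bases that end at the base before the RefSeq start, 5′ to 3′ on the plus strand. Capitals mark the longest run of letters that the 2 stretches share.
Mbl2, chr19:30232778-30232927: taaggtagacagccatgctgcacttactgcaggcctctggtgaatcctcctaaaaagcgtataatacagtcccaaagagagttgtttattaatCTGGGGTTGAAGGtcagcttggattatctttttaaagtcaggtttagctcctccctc
Mbl1, chr14:41151306-41151455: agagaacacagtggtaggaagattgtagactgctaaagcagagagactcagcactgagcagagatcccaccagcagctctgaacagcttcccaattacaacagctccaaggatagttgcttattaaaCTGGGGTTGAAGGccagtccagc
The shared run, CTGGGGTTGAAGG, is 13 bases long and lies 57 to 45 bases ahead of the Mbl2 start and 23 to 11 bases ahead of the Mbl1 start. Among 32851 RefSeq promoter windows of 300 bases, searched on both strands, 3 held it (0.00913%), the windows of Mbl2, Mbl1 and Slc25a53. A shared run of letters is a description of the sequence and not evidence of a binding site.

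The libraries held 57.4 to 87.1 M counts each. Mitochondrial genes took 4.59% to 28.7% of counts. The 6 libraries sampled 24 h after 6 Gy, with or without CBLB502, stood apart. Their summed level of 14 exocrine pancreas genes was 81.5 to 6772 FPKM (fragments per kilobase of gene, scaled to the mapped fragments of the library) against 7.03 to 28.6 FPKM in the other 21 libraries. Their summed level of 8 fibroblast genes was 6.34 to 9.06 FPKM against 0.0445 to 2.80 FPKM elsewhere. All 12 enterocyte markers were detected in every group, with a summed level of 7301 to 23070 FPKM. In RNA of whole tissue, fewer cells of a type and less RNA per cell cannot be told apart.

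Mbl2 was the member with the widest range, from 1.42 to 642 FPKM. The control libraries held 31.6, 37.2 and 28.0 FPKM, a mean of 32.3 ± 4.63 (SD, n = 3). At 24 h after 15 Gy the values were 484, 389.9 and 642 FPKM, a mean of 505 ± 127 (SD, n = 3), which is 15.7 times the control mean. All 3 irradiated libraries lay above all 3 controls in this comparison, on which the gene was chosen.

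Along the 15 Gy time course Mbl2 was higher at 24 h than at either neighbouring time. At 6 h the libraries held 98.5, 82.2 and 37.6 FPKM, a mean of 72.8 ± 31.5 (SD, n = 3), all above the controls. At 3 d they held 21.5, 126 and 57.6 FPKM, a mean of 68.4 ± 53.1 (SD, n = 3), and overlapped the control range. The fitted log2 fold change was 2.75 ± 0.61 (SE) from 6 h to 24 h and -3.07 ± 0.62 (SE) from 24 h to 3 d, given as descriptions since both use the libraries on which Mbl2 was chosen. Against control the fitted change was 1.13 ± 0.58 (SE) at 6 h and 0.81 ± 0.58 (SE) at 3 d.

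Mbl2 lay below the control range in every library taken 6 h after 6 Gy. The 3 libraries held 17.4, 13.5 and 11.4 FPKM, a mean of 14.1 ± 3.05 (SD, n = 3). The change from control was -1.26 ± 0.58 (SE) on the log2 scale, given without a test. The doses differed directly from each other at this time. Mbl2 was 5.15 times as high after 15 Gy as after 6 Gy, a log2 difference of 2.39 ± 0.60 (SE) with an adjusted p of 0.00283 in edgeR's quasi-likelihood test, and the libraries did not overlap. This call was kept under every alternative that was run. Here and below, p-values are Benjamini-Hochberg adjusted over all 11118 genes tested, and a call is an adjusted p under 0.05.

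Markers of gut region and cell type, and the mitochondrial share, also differed between the doses at 6 h. The summed level of 12 enterocyte genes was 7301 to 8405 FPKM after 6 Gy against 18730 to 23070 FPKM in controls, and 9 of the 12 fell at an adjusted p under 0.05. Genes of the proximal small intestine summed to 28110 to 35910 FPKM after 15 Gy against 15040 to 20230 FPKM in controls. Of these 6, 2 were called higher and 0 lower. In controls mean Gata4 was 24.9 FPKM, Bco1 13.3, Slc40a1 0.351 and Cybrd1 0.1485 FPKM. Other genes of this list therefore made nearly all of its sum. After 15 Gy mean Gata4 was 35.4 FPKM and mean Bco1 8.48 FPKM. After 6 Gy the same list summed to 9104 to 14640 FPKM, with 2 of 6 called higher and 2 lower. Over all genes 28.4% were called against control after 6 Gy and 29% after 15 Gy. Genes of the distal small intestine summed to 707 to 822 FPKM after 6 Gy against 302 to 357 FPKM in controls, although of the 4 tested 1 was called higher and 2 lower. The distal genes therefore did not all move in one direction. Hepatocyte genes summed to 8.42 to 17.2 FPKM after 6 Gy against 2.31 to 2.85 FPKM in controls. Of the 6 tested, 1 was called higher and 0 lower, and mean albumin (Alb) of this list was 0.0293 FPKM after 6 Gy. Neutrophil genes summed to 5.53 to 10.6 FPKM against 0.396 to 1.32 FPKM, where 1 of 7 could be tested and was called higher. Mitochondrial genes took 13.7% to 28.7% of counts after 6 Gy, 4.59% to 9.03% after 15 Gy and 11.8% to 17.8% in controls. The part of these measures in the Mbl2 values was not tested.

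In the 6 Gy 24 h group Mbl2 held 60.4, 138 and 80.7 FPKM, a mean of 93.0 ± 40.3 (SD, n = 3), all above the controls. The edgeR log2 fold change was 0.97 ± 0.58 (SE), and limma on log2(FPKM + 1) gave 1.42, both without a test. The scaling itself differed in this comparison: the median gene moved by 0.45 in limma on FPKM against 0.07 in edgeR, and 5806 of 6246 calls were higher in limma against 1843 of 3669 in edgeR.

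CBLB502 alone was followed by the lowest Mbl2 of all groups. The 3 libraries held 5.46, 1.42 and 1.62 FPKM, a mean of 2.84 ± 2.28 (SD, n = 3), which is 11.4 times below the control mean. This was a log2 fold change of -3.58 ± 0.64 (SE), given without a test since the controls took part in the choice of Mbl2, and no library overlapped the controls. The summed enterocyte level in these libraries was 17990 to 19600 FPKM. That of the distal small intestine genes was 158 to 209 FPKM against 302 to 357 FPKM in controls, with 1 of the 4 tested called lower. Genes of the proximal small intestine summed to 16770 to 17820 FPKM against 15040 to 20230 FPKM. Of these 6, 3 were called higher and 1 lower, where 5.74% of all genes were called. Mean Cybrd1 was 30.6 FPKM (3.64 to 77.8 over libraries) against 0.1485 FPKM in controls. Mean Slc40a1 was 43.4 FPKM (5.06 to 88.85) against 0.351 FPKM. Mean Bco1 was 0.968 against 13.3 FPKM and mean Gata4 25.6 against 24.9 FPKM. These named genes held a small part of the summed level. The part of these lists in the difference was not tested.

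In irradiated mice given CBLB502, every Mbl2 value lay above those of CBLB502 alone. With 15 Gy and CBLB502 the values were 179.7, 246 and 462 FPKM, a mean of 296 ± 148 (SD, n = 3), overlapping those of 15 Gy alone. The log2 difference between these irradiated groups was -0.86 ± 0.57 (SE), given without a test. With 6 Gy and CBLB502 the values were 23.6, 66.3 and 69.6 FPKM, a mean of 53.2 ± 25.7 (SD, n = 3). Against 6 Gy alone at 24 h the log2 difference was -0.82 ± 0.58 (SE), and edgeR gave an adjusted p of 1. The libraries overlapped.

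**Figure D1:**
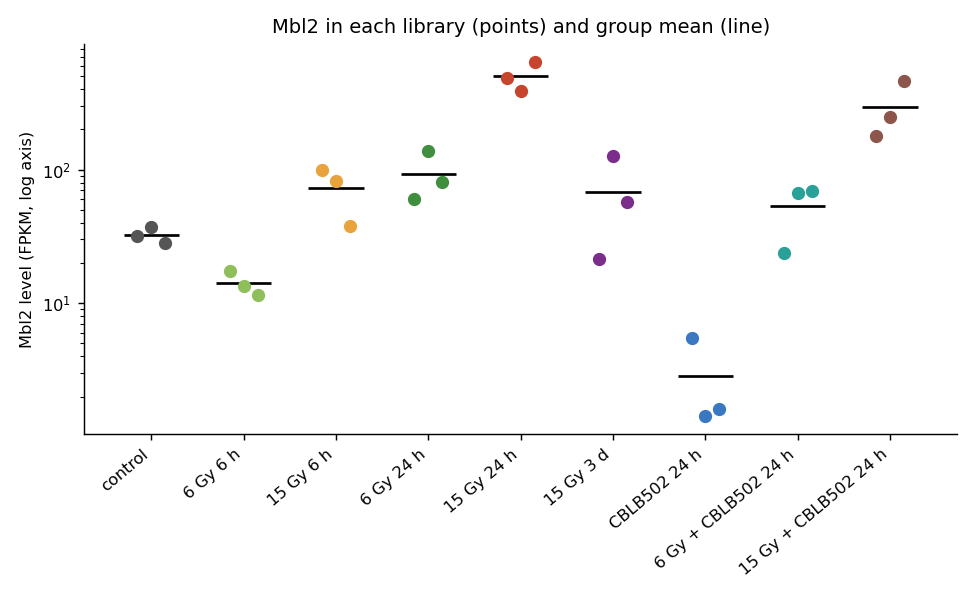
Mbl2 level in FPKM on a log axis in each of the 27 libraries (points) with the mean of the 3 libraries of each group (line). The 15 Gy 24 h libraries lie between 389.9 and 642 FPKM and the CBLB502 libraries between 1.42 and 5.46 FPKM, with the controls at 28.0 to 37.2 FPKM in between.

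Ordered by mean, Mbl2 ran from 15 Gy 24 h through 15 Gy with CBLB502, 6 Gy 24 h, 15 Gy 6 h, 15 Gy 3 d, 6 Gy with CBLB502, control and 6 Gy 6 h to CBLB502 alone. Neighbours in this order overlapped except at 3 steps. The 15 Gy with CBLB502 libraries lay above those of 6 Gy 24 h, the controls above 6 Gy 6 h, and 6 Gy 6 h above CBLB502 alone.

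Mbl1, which encodes mannose-binding lectin A, was at 0 counts in 26 libraries. The remaining library, 6 Gy with CBLB502 replicate 2, held 8 counts (0.0644 FPKM). A count of 0 allows up to 3 counts, at most 0.0522 CPM (counts scaled to a library of 1 M) in any library, for counting error only. The library with Mbl1 counts was also the one with the highest level of albumin (Alb), a hepatocyte gene, at 9.40 FPKM, and controls had no Alb count. The part of hepatocyte RNA in this value was not tested. In the 15 Gy 24 h libraries Alb had 0, 0 and 8 counts, in the order of replicates, and a hepatocyte list of 10 genes summed to 3.12 to 4.07 FPKM against 2.31 to 2.85 FPKM in controls.

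C2, the protease of the classical and lectin convertase, was highest in controls and lower in most treated groups. Controls held 11.5, 9.82 and 6.86 FPKM, a mean of 9.39 ± 2.34 (SD, n = 3). CBLB502 libraries held 3.05, 2.21 and 2.86 FPKM, a mean of 2.71 ± 0.44 (SD, n = 3), the lowest of all groups and with no overlap with controls. On the log2 scale the change was -1.79 ± 0.30 (SE) with an edgeR adjusted p of 0.00182, kept under every alternative.

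C2 was also lower in the groups given 6 Gy alone than in controls. At 24 h the libraries held 3.14, 4.02 and 5.53 FPKM, all below the controls, with a log2 fold change of -1.72 ± 0.30 (SE) and an edgeR adjusted p of 0.000296. This call held under every alternative, but its size depended on the scaling. The mean FPKM was 0.451 times that of controls, a smaller drop than in the edgeR fit. At 6 h the libraries held 5.86, 4.44 and 4.12 FPKM, again below all controls. The log2 fold change was -1.04 ± 0.29 (SE) with an edgeR adjusted p of 0.0109. That call at 6 h was lost without control replicate 1 (adjusted p = 0.0601), without 6 Gy 6 h replicate 2 (0.058) and without replicate 3 (0.06). The 6 Gy 24 h libraries also had higher pancreas and fibroblast sums than controls, and the 6 Gy 6 h libraries lower enterocyte sums. The part of these cell types in the C2 values was not tested.

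After 15 Gy, C2 held 6.06, 7.68 and 9.38 FPKM at 6 h, 6.26, 3.22 and 4.11 FPKM at 24 h, and 9.25, 6.99 and 4.76 FPKM at 3 d. Only the 24 h libraries lay entirely below the controls among these times. From 6 h to 24 h the log2 change was -0.84 ± 0.29 (SE) with an edgeR adjusted p of 0.0318, although the FPKM ranges overlapped. Leaving out 15 Gy 6 h replicate 2 or 3, or 15 Gy 24 h replicate 2 or 3, ended this call (adjusted p 0.0686, 0.127, 0.146 and 0.0698). Against control the log2 change was -0.33 ± 0.29 (SE) at 6 h and -0.68 ± 0.29 (SE) at 3 d, with edgeR adjusted p-values of 0.427 and 0.0867.

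Cfb, which encodes factor B, was the most abundant member after Mbl2 by its mean of 61.9 FPKM over all libraries, and its range was narrow. Controls held 80.2, 69.1 and 43.3 FPKM, a mean of 64.2 ± 18.9 (SD, n = 3). CBLB502 libraries held 45.0, 38.1 and 25.8 FPKM, a mean of 36.3 ± 9.69 (SD, n = 3). Control replicate 3 lay within that range. The log2 fold change was -0.87 ± 0.17 (SE) with an edgeR adjusted p of 0.00639, and without control replicate 1 the adjusted p was 0.0562.

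The doses also differed in Cfb at 6 h. After 6 Gy the libraries held 49.5, 52.9 and 50.6 FPKM, and after 15 Gy they held 77.3, 80.6 and 86.4 FPKM. No library of one dose overlapped the other, and the log2 difference was 0.73 ± 0.17 (SE) with an edgeR adjusted p of 0.00161, kept under every alternative. Neither dose passed the threshold against control, with log2 fold changes of -0.43 ± 0.17 (SE) and 0.30 ± 0.17 (SE) and edgeR adjusted p-values of 0.0641 and 0.197.

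Cfb at 24 h after 6 Gy depended on the scaling. The libraries held 51.7, 65.1 and 59.5 FPKM, within the control range. In edgeR with TMM scaling the log2 fold change was -0.69 ± 0.17 (SE) with an adjusted p of 0.00457. On log2(FPKM + 1), limma gave -0.09 with an adjusted p of 0.713, where the median gene moved by 0.45. Without control replicate 1 the edgeR adjusted p was 0.0528.

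C3, the component on which both convertases act, was low in all groups. It ranged from 0.0313 to 1.13 FPKM, with 11 to 496 counts per library, and reached 1 FPKM in 2 libraries, so it did not pass the filter for testing. Controls held 0.989, 0.194 and 0.156 FPKM and CBLB502 libraries 0.0438, 0.0372 and 0.0533 FPKM. All 3 CBLB502 libraries were below all 3 controls. In a fit with no filter on low values the log2 fold change was -3.29 ± 0.87 (SE) with an edgeR adjusted p of 0.061, and no comparison of C3 passed the threshold. The neutrophil list of 7 genes was at 0 in all CBLB502 libraries against 0.396 to 1.32 FPKM in controls, and the macrophage list of 8 genes summed to 0.677 to 1.80 FPKM against 2.60 to 4.01 FPKM. Their part in the C3 values was not tested.

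**Figure D2:**
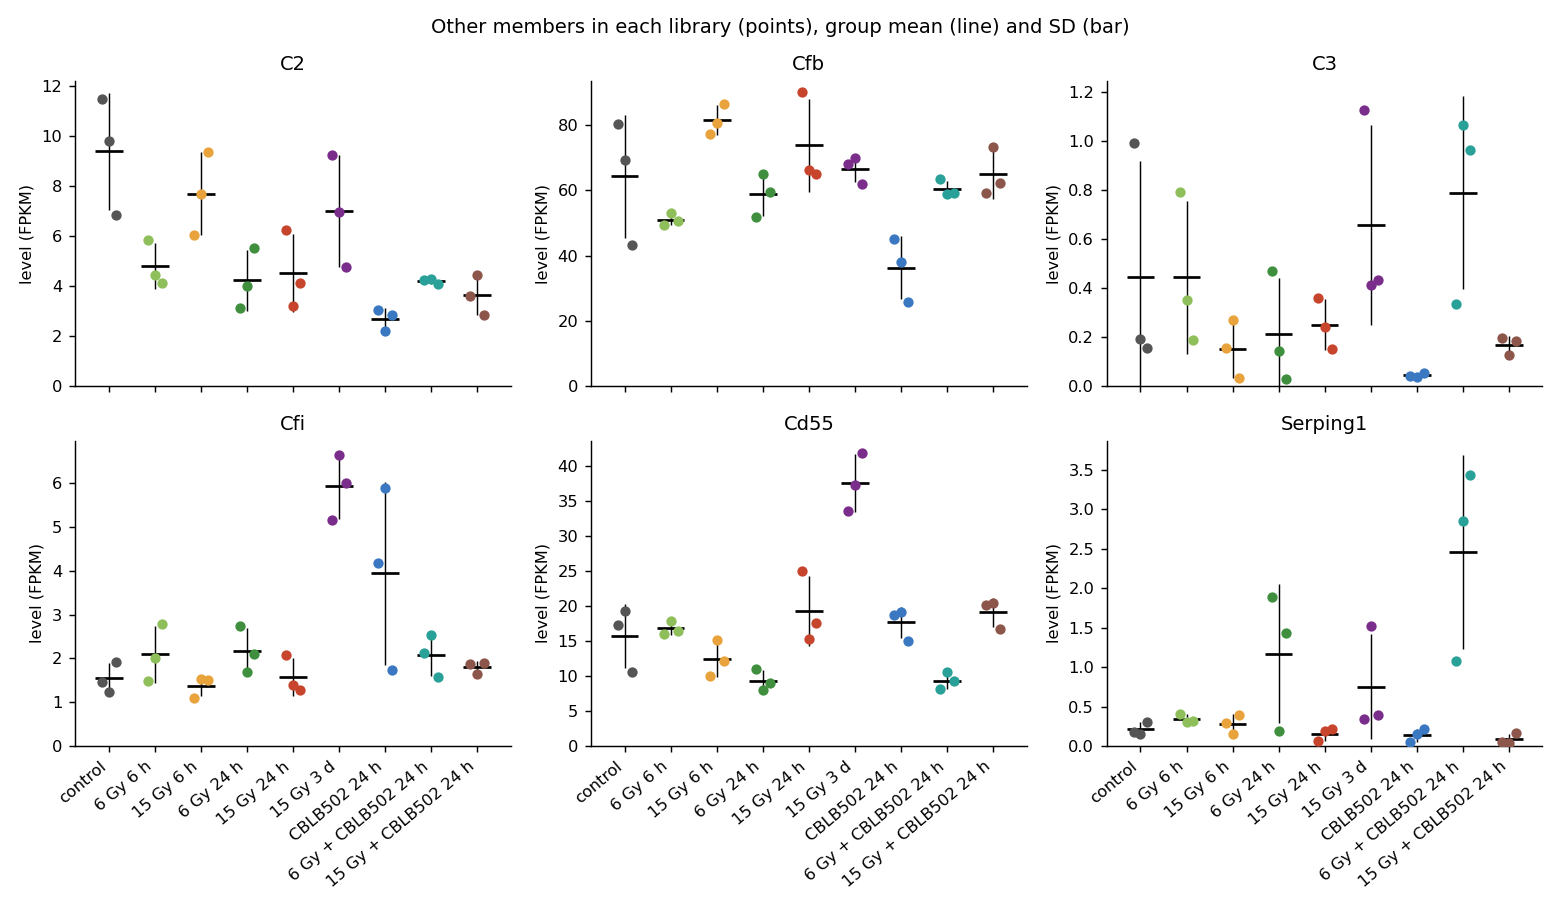
Level in FPKM of C2, Cfb, C3, Cfi, Cd55 and Serping1 in each of the 27 libraries (points), with the group mean (line) and SD (bar, n = 3). Cfi and Cd55 are highest in the 15 Gy 3 d libraries, C2, Cfb and C3 lowest in the CBLB502 libraries, and Serping1 highest in the libraries of 6 Gy with CBLB502.

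The regulators Cfi and Cd55 rose together at 3 d after 15 Gy. Cfi held 1.47, 1.23 and 1.92 FPKM in controls and 5.16, 6.66 and 6.01 FPKM at 3 d, 3.85 times the control mean. Its fitted log2 change was 1.69 ± 0.30 (SE) with an edgeR adjusted p of 0.000205. Cd55 held 17.3, 19.3 and 10.5 FPKM in controls and 33.6, 37.3 and 41.9 FPKM at 3 d, 2.40 times the control mean. This was a log2 fold change of 1.02 ± 0.21 (SE) with an edgeR adjusted p of 0.00119. For both genes every 3 d library lay above every control, and both calls held under every alternative.

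Both regulators passed above the control range between 24 h and 3 d. At 24 h after 15 Gy, Cfi held 2.07, 1.39 and 1.28 FPKM and Cd55 held 24.9, 15.2 and 17.6 FPKM, overlapping the controls. Cd55 had held 9.94, 15.1 and 12.2 FPKM at 6 h, all below its 24 h values. That step was 0.56 ± 0.21 (SE) on the log2 scale and was not called (edgeR adjusted p = 0.0509). From 24 h to 3 d the log2 change was 1.78 ± 0.30 (SE) for Cfi and 0.84 ± 0.21 (SE) for Cd55, with edgeR adjusted p-values of 0.000139 and 0.00598. Both were called under every alternative. Over the same interval the mean of Mbl2 went from 505 to 68.4 FPKM. In the 3 d libraries the enterocyte genes summed to 11810 to 17110 FPKM against 18730 to 23070 FPKM in controls. The fibroblast genes summed to 0.860 to 2.80 FPKM against 0.0967 to 0.456 FPKM. Proximal small intestine genes summed to 20550 to 27450 FPKM against 15040 to 20230 FPKM. Of these 6, 3 were called higher than control and 1 lower, where 29.4% of all genes were called. Mean Cybrd1 was 37.2 FPKM against 0.1485 FPKM in controls, and mean Bco1 0.41 against 13.3 FPKM. Mean Gata4 was 26.2 against 24.9 FPKM. These named genes held a small part of the summed level. The part of these lists in the rise was not tested.

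Cfi and Cd55 separated elsewhere. After CBLB502, Cfi held 4.18, 5.90 and 1.74 FPKM, and the third library lay within the control range. On the log2 scale the change was 1.27 ± 0.29 (SE) with an edgeR adjusted p of 0.0144. This call was lost without CBLB502 replicate 2 (adjusted p = 0.111), control replicate 1 (0.0686) or control replicate 2 (0.0697). Cd55 after CBLB502 held 18.8, 19.1 and 15.0 FPKM, with a log2 fold change of 0.15 ± 0.21 (SE) and an edgeR adjusted p of 0.748.

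Cd55 was lower 24 h after 6 Gy than in controls. The libraries held 11.0, 8.07 and 8.96 FPKM, with 1 control, at 10.5 FPKM, inside their range. The log2 fold change was -1.32 ± 0.22 (SE) with an edgeR adjusted p of 0.000186, and the call held under every alternative. Its size depended on the scaling, as the mean FPKM was 0.595 times that of controls, a smaller drop than in the edgeR fit. The matching libraries with CBLB502 held 8.15, 10.5 and 9.32 FPKM, a log2 difference of -0.01 ± 0.21 (SE) from 6 Gy alone and an edgeR adjusted p of 1. Cfi in these 2 groups held 2.73, 1.68 and 2.11 FPKM without and 2.12, 2.53 and 1.57 FPKM with CBLB502.

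Serping1, which encodes the C1 inhibitor, passed the filter through libraries of 3 groups. It reached 1 FPKM in 6 libraries, of 6 Gy 24 h, 6 Gy with CBLB502 and 15 Gy 3 d. Controls held 0.177, 0.155 and 0.311 FPKM. At 24 h after 6 Gy the values were 1.89, 0.187 and 1.44 FPKM, and with CBLB502 they were 1.08, 2.85 and 3.44 FPKM. The log2 fold change of 6 Gy 24 h against control was 1.84 ± 0.78 (SE), a description without a test since the gene could enter the fit only through groups in which it was high.

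The 6 libraries at or above 1 FPKM of Serping1 had high sums of fibroblast and macrophage genes, but a high fibroblast sum also came with low Serping1. The 6 Gy 24 h libraries summed to 8.57, 6.41 and 6.34 FPKM for the fibroblast list, in the order of replicates, and to 20.8, 5.28 and 16.4 FPKM for the macrophage list. The second of these, with the lowest macrophage sum of the group, was also the one with 0.187 FPKM of Serping1. Its fibroblast sum was above that of replicate 3, which held 1.44 FPKM of Serping1. It was also the library with 6772 FPKM of exocrine pancreas genes. At 3 d after 15 Gy, replicate 2 had 1.53 FPKM of Serping1 against 0.341 and 0.394 FPKM in the other libraries. It also had the highest fibroblast and macrophage sums of its group, 2.80 and 8.20 FPKM. The part of these cell types in the Serping1 values was not tested.

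**Figure D3:**
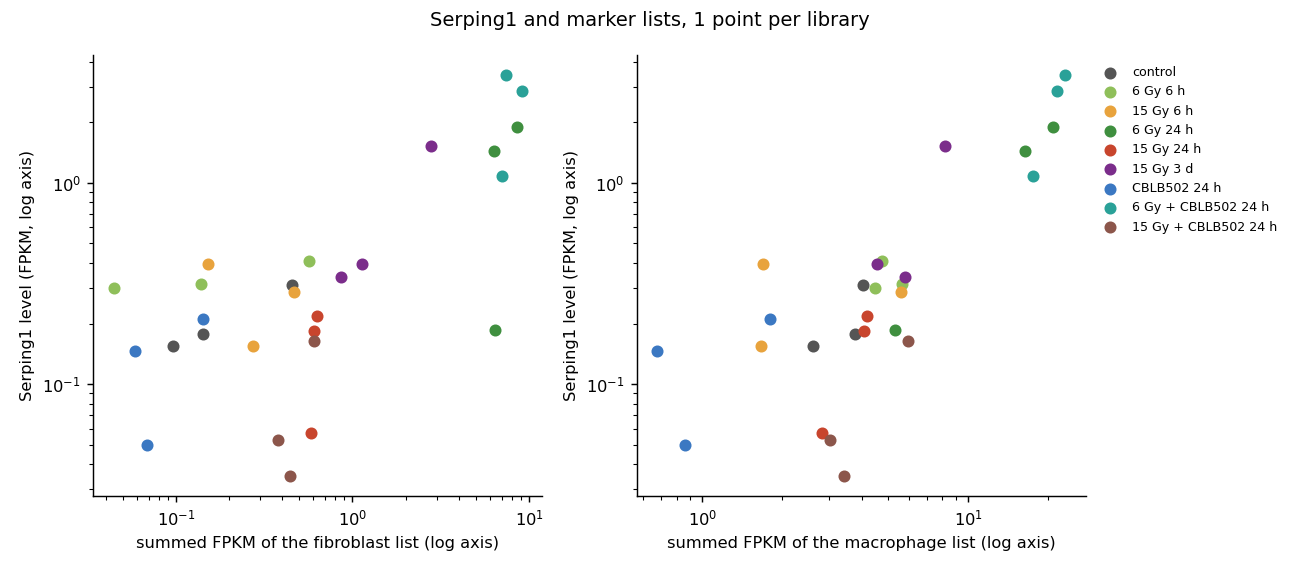
Serping1 level in FPKM against the summed FPKM of 8 fibroblast genes (left) and 8 macrophage genes (right), log axes, 1 point per library coloured by group. Of the 6 libraries at or above 1 FPKM of Serping1, 5 are of 6 Gy at 24 h with or without CBLB502, and 1 is 15 Gy 3 d replicate 2.

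Counted over comparisons, 6 of the 8 members passed the filter, and their calls are set here as a description beside the share of all 11118 tested genes called in either direction. Against control, 1 of 6 was called at 6 h after 6 Gy (C2 lower, 28.4% of all genes called) and 0 of 6 at 6 h after 15 Gy (29% of all genes). In the 6 Gy 24 h group 3 of 6 were lower (C2, Cfb and Cd55, 33% of all genes), and at 3 d after 15 Gy 2 of 6 were higher (Cfi and Cd55, 29.4%). For 15 Gy 24 h, the comparison on which Mbl2 was chosen, 2 of 6 were called (Mbl2 higher and C2 lower, 4.94%), from which nothing is read. After CBLB502 C2 and Cfb were called lower and Cfi higher, where 5.74% of all genes were called, and Mbl2 is left out here as a description. In these counts Mbl2 stands as a description wherever control or 15 Gy 24 h is an arm. With only the control and CBLB502 groups in the fit, or without control replicate 1, C2 alone of C2, Cfb and Cfi remained called.

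Between irradiated groups, 2 of 6 members were higher after 15 Gy than after 6 Gy at 6 h (Mbl2 and Cfb), where 43.2% of all genes were called. From 6 h to 24 h after 15 Gy C2 was called lower (32.2% of all genes called). From 24 h to 3 d Cfi and Cd55 were called higher (25.3%). The Mbl2 changes over these intervals are descriptions only. With 25.3% to 43.2% of all genes called in these comparisons, a called member was not unusual. Median log2 fold changes of the 6 members lay between -0.72 after CBLB502 and 0.92 at 3 d after 15 Gy, against 0.00 and 0.02 for all genes.

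CBLB502 within irradiated mice gave no call. In edgeR 0 of 6 members and 0 of 11118 genes (0%) passed within 15 Gy, where 867 genes had an unadjusted p under 0.05 and DESeq2 called 63. Within 6 Gy 0 of 6 members and 0 genes (0%) passed, where 303 had an unadjusted p under 0.05 and DESeq2 called 7. C2 differed by -0.39 ± 0.29 (SE) within 15 Gy and by -0.03 ± 0.29 (SE) within 6 Gy on the log2 scale. Cfb differed by -0.26 ± 0.17 (SE) and 0.01 ± 0.17 (SE). These intervals do not show that the groups were alike.

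The difference between the CBLB502 effect with and without 15 Gy was tested as an interaction. In edgeR it was called for 0 of 6 members and for 25 genes (0.225%), with 1045 genes at an unadjusted p under 0.05. The interaction was 1.39 ± 0.41 (SE) for C2, 0.61 ± 0.24 (SE) for Cfb and -1.15 ± 0.41 (SE) for Cfi on the log2 scale, with edgeR adjusted p-values of 0.213, 0.418 and 0.33. For Mbl2 it was 2.73 ± 0.83 (SE), given without a test since it uses the libraries on which the gene was chosen. DESeq2 called 128 genes and none of C2, Cfb, Cfi, Cd55 and Serping1.

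**Figure D4:**
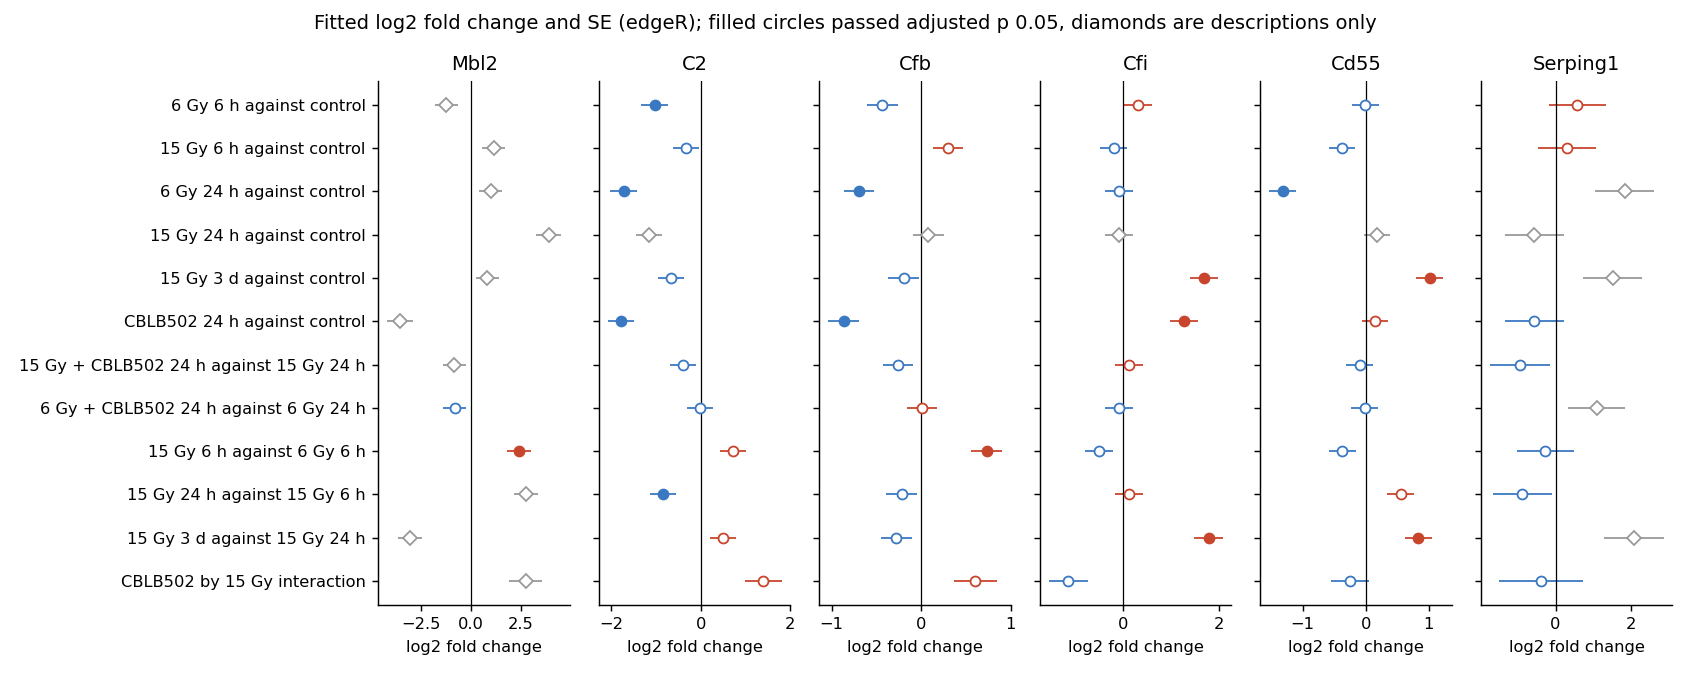
Fitted log2 fold change (point) and SE (bar) from edgeR for the 6 tested members in each comparison, with red for higher and blue for lower. Filled circles passed an adjusted p of 0.05, open circles did not, and grey diamonds are descriptions with no test, for values that share libraries with the choice of Mbl2 or groups through which Serping1 passed the filter. After CBLB502 alone Mbl2, C2 and Cfb lie left of 0 and Cfi right of it.

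Beyond the members, 44 further complement genes were listed by role, and 13 passed the filter. None of them averaged 5 FPKM over all libraries. Of 7 further genes of the lectin pathway, which include the MASP proteases that pair with mannose-binding lectins, 0 passed, with a summed level of at most 0.799 FPKM in any library. Of 9 classical genes 4 passed, of 11 regulators 5, of 8 receptors 2, of 7 terminal genes 1 and of 2 alternative pathway genes 1.

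Clusterin (Clu), a chaperone that also restrains the terminal pathway, rose after both doses at 6 h. It held 1.47, 0.773 and 0.623 FPKM in controls, 8.61, 4.18 and 2.25 FPKM at 6 h after 6 Gy and 1.31, 10.1 and 1.61 FPKM at 6 h after 15 Gy. The log2 fold changes were 2.37 ± 0.72 (SE) and 2.17 ± 0.72 (SE), with edgeR adjusted p-values of 0.0172 and 0.0277. At 6 h after 15 Gy replicate 2 was far above the other libraries, 1 of which lay within the control range. At 3 d Clu held 8.81, 13.5 and 18.2 FPKM, a log2 fold change of 3.58 ± 0.76 (SE) with an edgeR adjusted p of 0.00127, in the libraries where Cfi and Cd55 were high.

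The carboxypeptidase N subunits, which inactivate complement peptides, parted at 3 d. The catalytic Cpn1 held 0.437, 0.518 and 0.626 FPKM in controls and 0.101, 0.210 and 0.124 FPKM at 3 d. It fell by 2.09 on the log2 scale, with an edgeR adjusted p of 0.000467. The regulatory Cpn2 held 0.142, 0.101 and 0.974 FPKM in controls and 3.46, 4.18 and 1.685 FPKM at 3 d. Its rise of 2.67 is a description without a test. Cpn2 reached 1 FPKM only at 3 d, after CBLB502 alone and with 6 Gy and CBLB502. Cpn1 reached 1 FPKM only with 6 Gy and CBLB502 and in 15 Gy 6 h replicate 1. Cpn1 also fell by 1.54 at 6 h after 6 Gy (adjusted p = 0.00498) and was higher by 2.21 after 15 Gy than after 6 Gy at that time (0.000121). From 24 h to 3 d after 15 Gy it fell by 1.91 (0.0012).

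C8g, a chain of the terminal component C8, was higher at 6 h after 15 Gy than in controls by 1.39 (edgeR adjusted p = 0.00742) and than after 6 Gy by 1.55 (0.00182), and fell by 2.15 from 6 h to 24 h (0.000177). C4b, whose reads may be shared with its near copy C4a, fell by 2.27 on the log2 scale from 6 h to 24 h after 15 Gy and rose by 2.97 from 24 h to 3 d, with edgeR adjusted p-values of 0.00289 and 0.000492. Cr1l, a membrane regulator of C3 cleavage, was higher by 0.64 at 6 h after 6 Gy (0.0343) and lower by 15 Gy than by 6 Gy, with a log2 difference of -0.80 (0.00551).

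C1qc, a chain of C1q made mainly by macrophages, rose by 2.72 at 24 h after 6 Gy (edgeR adjusted p = 0.0185), in the group with macrophage sums of 5.28 to 20.8 FPKM against 2.60 to 4.01 FPKM in controls. Cd55b had 0 counts in all 3 libraries at 6 h after 15 Gy against 8, 117 and 31 counts in the controls, most of them in replicate 2. After CBLB502 0 of the 13 further genes were called in edgeR, and 3 had an unadjusted p under 0.05. Of all 11118 genes 638 (5.74%) were called and 2396 had an unadjusted p under 0.05, so nothing is read from these counts. The median log2 fold change was -0.46 for the 13 genes and 0.00 for all genes.

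The genes with the pattern most like Mbl2 were ranked by Pearson's r of log2 CPM over the 27 libraries, among named genes that reached a mean of 5 FPKM in their highest group. Among them were Hsd17b6, a steroid and retinol dehydrogenase, with r = 0.84 and Spearman's rho = 0.80, Hgsnat, a lysosomal acetyltransferase (r = 0.82), Cd36, a fatty acid receptor (0.80), Malrd1 (0.79) and Igsf9 (0.78). All points share the library scaling, and the ranking is a description. Hsd17b6 was lowest after CBLB502, like Mbl2, at a mean of 48.5 FPKM against 60.7 FPKM in controls. At 24 h after 15 Gy its mean was 121 FPKM, where that of Mbl2 was 505 FPKM, so the shared order of libraries did not come with a shared size of change.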

How the data were processed

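Counts and FPKM per gene and library were used as the authors deposited them. The counts are whole numbers per gene, with no strand setting or counting method stated. FPKM came from the authors as well, per the file headers, and 0.0001 stands for 0. The submitters' processing notes name Bowtie 0.12.2, HISAT2 2.0, StringTie 1.3.0 and the build mm8, but 94.2% of 55141 matched genes have GENCODE vM21 (GRCm38) starts and ends, and GRCm38 is used here.

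The 11118 genes that reached 1 FPKM in 3 or more libraries were tested on counts with the quasi-likelihood F test of edgeR 4.0.16 in R 4.3.3, TMM scaling, all 27 libraries in one fit and 1 coefficient per group, with Benjamini-Hochberg adjustment. The common dispersion was 0.0961 (31% variation). Alternatives used limma 3.58.1 and DESeq2 1.42.0, other scalings, filters and subsets of libraries. The fits were tested on simulated data. Library totals ran from 57.4 to 87.1 M, and replicates differed by more than counting error (chi-square per degree of freedom 97.5 to 872).

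The members and lists were chosen with earlier results of these data known. All 8 members are named in every group. Other complement genes are named where called (at most 3 per comparison, by adjusted p) or at a mean of at least 5 FPKM, and the 6 genes most like Mbl2 by Pearson's r of log2 CPM with a prior count of 2. Of these 6, 1 is not reported here.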

Additional observations from a re-analysis of the deposited data

Results flagged for a closer look

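At 6 h the Mbl2 values of the 2 doses lay on opposite sides of the controls. This is a description without a test, since the controls took part in the choice of Mbl2. How many of all genes split in this way was not counted. All 3 libraries of 6 Gy lay below all controls, with a ratio of means of 0.438, and all 3 of 15 Gy lay above them, with a ratio of 2.255. The difference between doses was tested and was 2.39 on the log2 scale (edgeR adjusted p = 0.00283), where 43.2% of all genes were called.

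Cfb also differed between the doses at 6 h, by 0.73 on the log2 scale (edgeR adjusted p = 0.00161), with the libraries of the 2 doses apart and both overlapping the controls.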

How the results depend on the processing

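Leaving aside the values given as descriptions, 14 member changes were called in edgeR, and 9 of them stayed past the threshold in the same direction under every alternative and every left-out library. Of 291 recomputed values for changes called in any fit, 253 kept direction and side, 19 lost the call, 16 gained one and 3 changed sign. The sign changes were all Cfb at 3 d after 15 Gy (0.10 in limma with either pseudocount, 1 or 0.1, and 0.01 without control replicate 1, in a range of -0.41 to 0.01 over left-out libraries), which was not called. The counts below include descriptions of Mbl2 and Serping1. The count of members called against control at 6 h after 6 Gy was 1, 2 in DESeq2, 2 with only the compared groups in the fit, and 0 to 2 with a library left out. At 6 h after 15 Gy it was 0, and 0 to 1 with a library left out. At 24 h after 15 Gy it was 2, and 1 with only the compared groups, 1 without the 6 libraries of 6 Gy at 24 h and 1 to 2 with a library left out. At 3 d it was 2, and 2 to 4 with a library left out, 4 being without control replicate 3. After CBLB502 it was 4, 2 with only the compared groups and 2 to 4 with a library left out. From 6 h to 24 h it was 2, 1 with only the compared groups and 1 to 2 with a library left out. For the interaction it was 0, and 1 in DESeq2, which was Mbl2 and carries no test. With the replicate number as a block (replicate block) the count of members called was the same in 11 comparisons and went from 3 to 4 from 24 h to 3 d, the added member being Serping1, which passed the filter partly through the 3 d group. Of 33 correlations between same-numbered libraries, 9 exceeded 0.1 (range -0.26 to 0.25). Differently numbered libraries were not compared, so these values cannot decide whether the numbers pair the libraries. The cause of these changes was not tested. Fewer genes were called higher on the FPKM scale after CBLB502 (104 of 356 in limma against 276 of 638 in edgeR), and more from 24 h to 3 d (1482 of 2370 against 1241 of 2813) and at 3 d (2331 of 3157 against 1542 of 3273). C3 and Mbl1 were too low to pass the filter.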
